A study of Mus musculus with 12 samples.

Results

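The chemokine receptor genes Ccr1, Ccr2, Ccr7, Cx3cr1, Cxcr4 and Ccrl2, which macrophages can express, were followed across the transcriptomes of cultured mouse macrophages. They were taken by name as 6 of the 35275 genes in the count tables. Of the 6, 5 passed the filter on low counts that left 12849 genes for testing, and Cx3cr1 did not pass. The cells were wildtype bone marrow cells that M-CSF (20 ng/ml), IL-4 (20 ng/ml) and IL-10 (10 ng/ml) had turned into bone marrow-derived macrophages (BMDMs) of the alternatively activated kind over 6 days. During all 6 days one group of cultures received the solvent DMSO, another received the poly(ADP-ribose) polymerase inhibitor olaparib, and the last received methyl-nicotinamide (MNA), a nicotinamide derivative. Each group held 4 libraries, numbered 1 to 4, from bone marrow donors of either sex, aged 6 to 10 weeks. The strain of the donors and the doses of olaparib and MNA are not given in the sources used here. The study's methods speak of 4 donor mice, but the labels tie no library to a mouse, so p-values measure the spread between these libraries. The question of the comparisons was how olaparib or MNA changes gene expression while the macrophages form.

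Chemokine receptors are membrane proteins with several membrane-spanning helices that couple to inhibitory G proteins and steer cells along gradients of chemokines. Ccr2 is the receptor for Ccl2 that lets classical monocytes leave the bone marrow, Cx3cr1 binds fractalkine (Cx3cl1) and is a mark of patrolling monocytes and many resident macrophages, and Ccr7 guides mature dendritic cells to lymph nodes along Ccl19 and Ccl21. Ccr1 answers Ccl3, Ccl5 and related inflammatory chemokines, Cxcr4 binds Cxcl12 and holds cells in the marrow, and Ccrl2 is an atypical receptor that binds chemerin without signalling through G proteins.

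The libraries held 21146291 to 31446849 counts. The labelled cell type was checked against macrophage markers: Csf1r, the receptor for M-CSF, stood at a mean of 517.5 CPM (counts scaled to the size of each library) in DMSO, and all 9 of the fixed macrophage markers passed the count filter. Not all of the 9 were abundant, as Fcgr1 stood at a mean of 1.31 CPM in olaparib and 0.397 in MNA. The filter also passed genes of other cells, such as the T cell gene Cd3e at 0.0256 CPM in DMSO, so passing it does not separate cell types. MNA replicate 2 stood apart from its group. Over the tested genes its root mean square log2 distance to the DMSO mean was 0.288, against 0.892 to the mean of the other 3 MNA libraries, which lay 0.905 to 0.937 from the DMSO mean. Its label was kept, and results that use MNA are given with it and, for the receptors and for the counts of each gene list, also without it. In bulk RNA, fewer cells of a type and less RNA per cell cannot be told apart.

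In the genome build GRCm38, 4 of the 6 genes lie on chromosome 9. Ccrl2 spans 111054486 to 111057519, Cx3cr1 119901616 to 120069879, Ccr1 123962124 to 123968692 and Ccr2 124101950 to 124113557. Ccr1 and Ccr2 stand in a cluster of chemokine receptor genes with Ccr3, Ccr1l1 and Xcr1. Cxcr4 lies on chromosome 1 from 128588199 to 128592293, and Ccr7 on chromosome 11 from 99144196 to 99155077. Ccr2 is on the plus strand and the other 5 are on the minus strand. Of the 31-base words in its transcripts, Ccr2 shares 3.48% with other genes, Cx3cr1 shares 3.28%, with the antisense gene Gm33858 as its main partner at 49 of 146 shared words, and the other 4 share under 1% each. Which strand setting the counts were made with is not given in the sources used here, so reads of Cx3cr1 and Gm33858, which share 78 exon bases, cannot be told apart.

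Promoter windows of 300 bases, 250 before and 50 after a transcription start, were at hand for 5 of the 6 genes from RefSeq in build GRCm38.p6, with Ccr7 not among them. The windows of Ccr2, which rose with both agents, and of Cxcr4 and Ccrl2, which were lower, are shown because these genes moved in opposite directions. Capitals mark matches to any of 6 searched motifs, and each window reads 5′ to 3′ on the gene's own strand, Ccr2 at chr9:124101933-124102232 (plus), Cxcr4 at chr1:128592250-128592549 (minus) and the Ccrl2 window with a match at chr9:111057469-111057768 (minus).
Ccr2: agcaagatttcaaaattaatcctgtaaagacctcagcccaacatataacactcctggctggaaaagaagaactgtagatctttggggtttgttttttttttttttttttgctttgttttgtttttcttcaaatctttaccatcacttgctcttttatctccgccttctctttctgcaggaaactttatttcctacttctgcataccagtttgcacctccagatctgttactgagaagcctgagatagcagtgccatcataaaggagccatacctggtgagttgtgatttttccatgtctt
Cxcr4: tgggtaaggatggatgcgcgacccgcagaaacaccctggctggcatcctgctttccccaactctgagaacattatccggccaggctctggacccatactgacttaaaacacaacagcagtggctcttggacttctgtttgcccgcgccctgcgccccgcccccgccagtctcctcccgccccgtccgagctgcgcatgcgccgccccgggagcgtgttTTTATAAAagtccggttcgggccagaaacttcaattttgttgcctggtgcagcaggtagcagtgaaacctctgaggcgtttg
Ccrl2: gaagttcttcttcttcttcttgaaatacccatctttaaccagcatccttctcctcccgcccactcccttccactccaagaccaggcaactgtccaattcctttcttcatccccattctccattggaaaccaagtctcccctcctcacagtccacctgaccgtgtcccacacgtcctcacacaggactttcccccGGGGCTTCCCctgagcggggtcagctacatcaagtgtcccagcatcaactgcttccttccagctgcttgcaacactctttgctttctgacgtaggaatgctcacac
The motifs, searched on both strands, were the STAT6 motif TTCNNNNGAA, the PU.1 motif AGGAAGT, the AP-1 motif TGANTCA, the interferon response motif GAAANNGAAA, the TATA box TATAAA and the NF-kB motif by name. In Cxcr4 the capitals are a TATA box at -30 from the start site, which overlaps a match on the other strand at -32, and in Ccrl2 they are an NF-kB match at -56. Ccr1 had an NF-kB match at -74, while the windows of Ccr2 and Cx3cr1 and the other 2 windows of Ccrl2 held none of the 6. Among all 32544 distinct windows, 6.98% held the STAT6 motif, 9.27% PU.1, 7.79% AP-1, 3.45% the interferon motif, 13.6% the TATA box and 8.49% NF-kB. A match is a run of letters in the reference and no measured site.

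The levels of the 6 genes were compared as RPKM (CPM per kilobase of annotated exons). In DMSO, Cxcr4 had 94.3 ± 17.1 RPKM and Ccr1 90.2 ± 4.26 (SD, n = 4), and their libraries overlapped. Ccrl2 followed at 15.1 ± 4.92, below both without overlap. Ccr7 at 0.117 ± 0.0735, Ccr2 at 0.0345 ± 0.0149 and Cx3cr1 at 0.0121 ± 0.00955 came last, and each of these overlapped the next. Cxcr4 and Ccr1 together with Ccrl2 made up nearly all of the message of the 6 in control macrophages, and the monocyte and dendritic cell receptors were near the detection limit. In olaparib the order was the same, with Cxcr4 at 73.4 ± 4.90 and Ccr1 at 70.5 ± 7.05 RPKM overlapping and every later neighbour apart. In MNA replicates 1, 3 and 4, Ccr1 at 71.3 ± 13.5 RPKM lay above Cxcr4 at 46.1 ± 4.18, and Ccr7 had 3.67 ± 1.46 RPKM (SD, n = 3), with no overlap between any neighbours in the order. Ccr7 made up 0.00732% to 0.0967% of the summed RPKM of the 6 genes in DMSO, 0.236% to 0.643% in olaparib, and 3.75%, 0.118%, 2.31% and 2.34% in MNA replicates 1 to 4. Cxcr4 made up 43.8% to 51.4% of that sum in DMSO, 44.5% to 51.7% in olaparib, and 30.9%, 46.4%, 41.5% and 35.7% in MNA replicates 1 to 4. The share of Ccr1 was 40.0% to 51.5% in DMSO, 41.1% to 51.1% in olaparib, and 60.4%, 46.7%, 49.3% and 55.6% in the MNA replicates. The balance between these 2 abundant receptors was thus within overlapping ranges in DMSO and olaparib and leaned to Ccr1 in MNA replicates 1, 3 and 4. In replicate 3 the Cxcr4 share lay below the DMSO range, while the Ccr1 share lay within it. With MNA replicate 2 included, Ccr1 and Cxcr4 overlapped, as did Ccr7 and Ccr2, and Ccr2 and Cx3cr1.

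**Figure D1:**
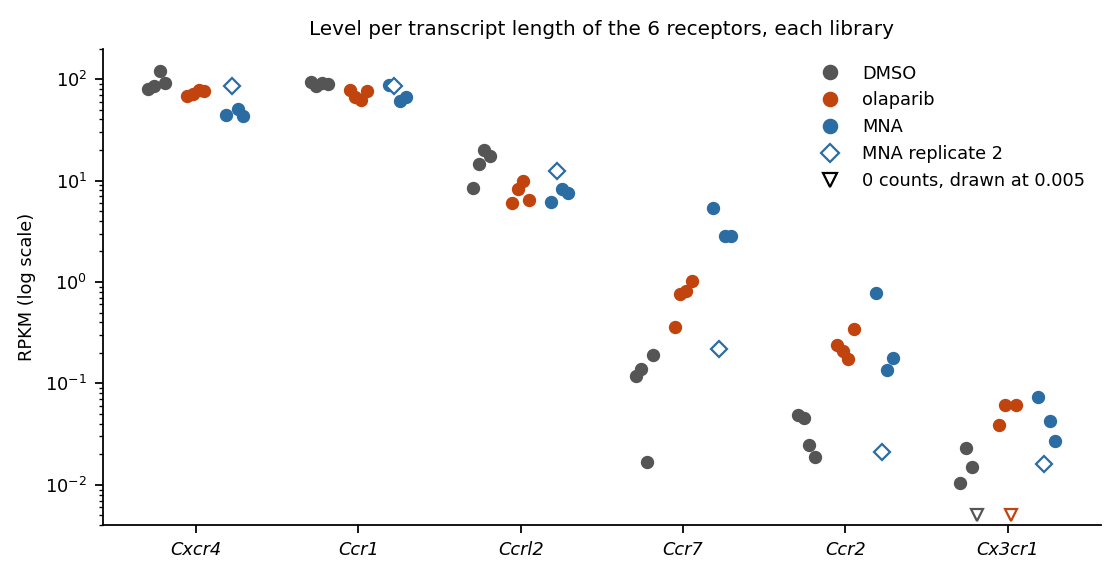
Level of the 6 receptors in RPKM on a log axis, 1 point per library, coloured by group, with MNA replicate 2 as an open diamond and libraries with 0 counts as open triangles drawn at 0.005. Cxcr4 and Ccr1 lie together near the top in DMSO, and Ccr7 rises from 0.117 in DMSO to 3.67 RPKM in MNA replicates 1, 3 and 4.

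With olaparib, 2 of the 5 tested receptors, Ccr2 and Ccr7, were called higher than in DMSO and 2, Ccr1 and Ccrl2, were called lower (edgeR quasi-likelihood test, Benjamini-Hochberg adjusted p under 0.05). Over all tested genes 14.3% were called higher and 12.8% lower. With MNA the called genes were Ccr2 and Ccr7, higher, and Cxcr4 and Ccrl2, lower, against 16.3% of all genes called higher and 12.3% lower. Without MNA replicate 2, Ccr1 joined the genes lower with MNA and Cxcr4 those lower with olaparib. In that fit 22.5% of all genes were called higher and 21.2% lower with olaparib, and 27.2% and 26.9% with MNA. Both comparisons use the same DMSO libraries. Between olaparib and MNA none of the 5 was called in the 12 libraries, where 21.8% of all genes were called in either direction. Of the 5, only Ccr7 had an unadjusted p under 0.05 (0.0145), and DESeq2 called it. Without MNA replicate 2 Ccr7 and Cxcr4 were called, against 42.3% of all genes. The median log2 fold change over all tested genes was 0.004 for olaparib and 0.0 for MNA against DMSO.

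**Figure D2:**
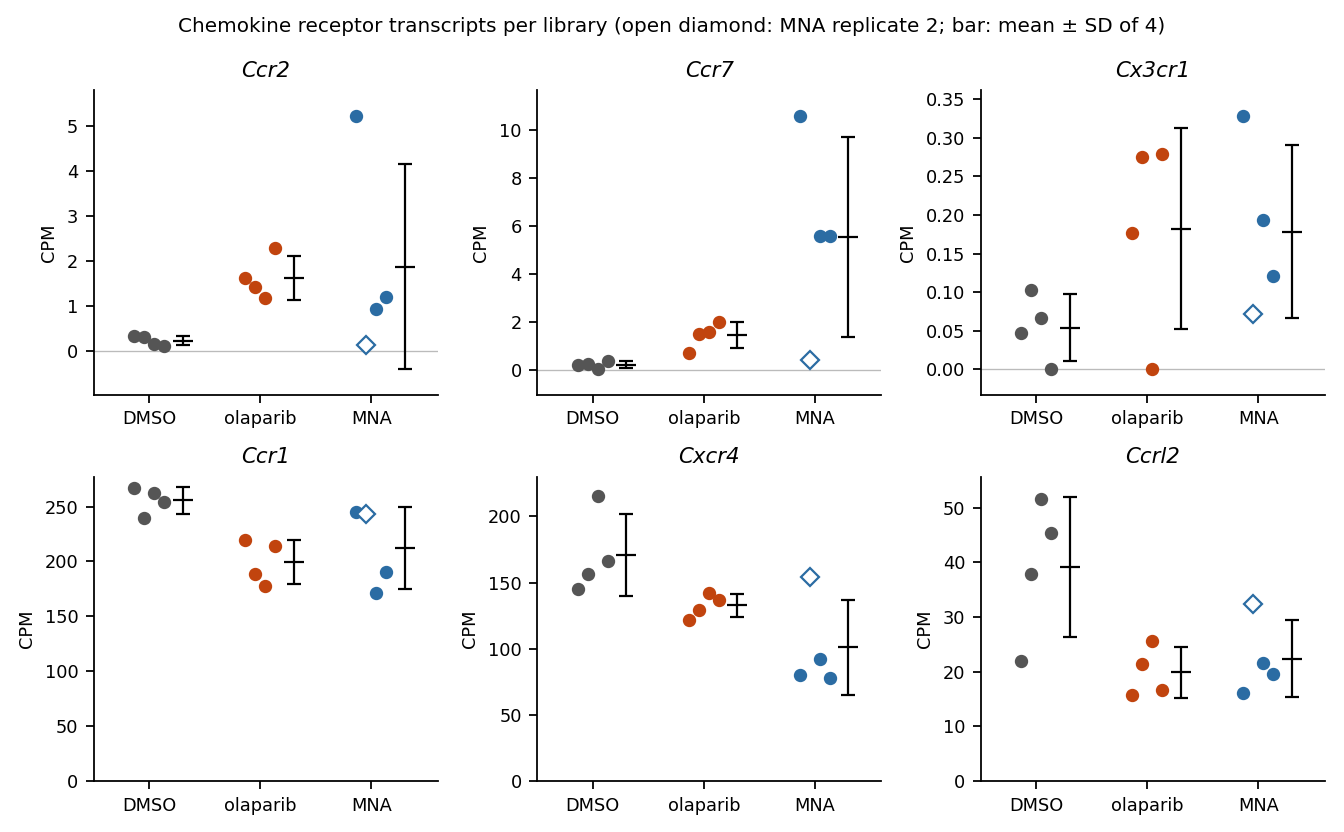
CPM of each receptor by group, 1 point per library, with the mean ± SD of 4 libraries beside the points and MNA replicate 2 as an open diamond. Ccr2 and Ccr7 lie near 0 in DMSO and higher in the 4 olaparib libraries, while Cxcr4 is at 78.0 to 92.0 CPM in MNA replicates 1, 3 and 4 against 145 to 215 in DMSO.

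Ccr2, the monocyte receptor for Ccl2, was nearly silent in control macrophages and rose with olaparib. Its CPM in DMSO replicates 1 to 4 was 0.328, 0.31, 0.168 and 0.127, from 4 to 9 counts per library. In olaparib replicates 1 to 4 it was 1.62, 1.42, 1.18 and 2.30, from 28 to 66 counts. In MNA replicates 1 to 4 it was 5.22, 0.143, 0.926 and 1.21. All 4 olaparib libraries lay above all DMSO libraries, as did MNA replicates 1, 3 and 4, whereas MNA replicate 2 lay inside the DMSO range with 4 counts. The fold change was 7.06 for olaparib (log2 2.82, SE 0.828, adjusted p = 0.0264 by edgeR). For MNA it was 8.05 (log2 3.01, SE 0.828, adjusted p = 0.0245), and 10.6 without MNA replicate 2 (log2 3.41, SE 0.603, adjusted p = 0.000302). MNA replicate 1 alone held 127 counts, and without it the log2 fold change of MNA was 1.71 with an adjusted p of 0.0798. Leaving out any one of DMSO replicates 2 to 4 or MNA replicates 3 and 4 also ended the MNA call, at adjusted p of 0.0546 to 0.0639. For olaparib the same held for DMSO replicates 2 to 4 and olaparib replicate 4, at 0.0548 to 0.0736. Olaparib and MNA differed by a log2 of -0.19 (SE 0.688, adjusted p = 0.88).

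Ccr7, the homing receptor of mature dendritic cells, changed by the widest fold among the 5 with MNA. In DMSO its CPM was 0.234, 0.275, 0.0335 and 0.381, from 1 to 12 counts. Olaparib replicates 1 to 4 held 0.706, 1.49, 1.60 and 2.02, from 20 to 58 counts. MNA replicates 1 to 4 held 10.6, 0.43, 5.60 and 5.59, and the counts of replicates 1, 3 and 4 were 258, 145 and 139. All olaparib and all MNA libraries lay above all DMSO libraries, though MNA replicate 2 with 12 counts did so narrowly. The fold change was 6.16 with olaparib (log2 2.62, SE 0.835, adjusted p = 0.0362). It was 23.4 with MNA (log2 4.55, SE 0.822, adjusted p = 0.0142) and 30.6 without MNA replicate 2 (log2 4.94, SE 0.453, adjusted p = 8.13e-07). The MNA call was lost only where the 2 groups were fitted alone, with MNA replicate 2 among them (adjusted p = 0.064). The olaparib call was lost when any of the 4 DMSO libraries or olaparib replicate 2, 3 or 4 was left out, at 0.0578 to 0.0925. Olaparib lay below MNA by a log2 of -1.93 (SE 0.677, adjusted p = 0.0602). DESeq2 gave an adjusted p of 0.0212, and without MNA replicate 2 the difference was -2.32 (SE 0.364, adjusted p = 0.000184), with the 4 olaparib libraries below the 3 MNA libraries.

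Cx3cr1, the fractalkine receptor, was at or near the floor of 3 counts per library. DMSO replicates 1 to 4 held 1, 3, 2 and 0 counts, olaparib replicates 5, 7, 0 and 8, and MNA replicates 8, 2, 5 and 3. The groups overlapped. With no filter on low counts its log2 fold change was 1.68 for olaparib (adjusted p = 0.258) and 1.63 for MNA (adjusted p = 0.266), so a difference was not detectable at this depth. The ratio of Ccr2 to Cx3cr1, in log2 reads per length, was formed in the 10 libraries with a count of Cx3cr1, leaving out DMSO replicate 4 and olaparib replicate 3. It ranged from 0.74 to 2.22 in DMSO, from 1.78 to 2.62 in olaparib and from 0.41 to 3.40 in MNA. The mean difference from DMSO was 0.965 for olaparib (3 against 3 libraries, p = 0.2, adjusted over 3 contrasts 0.6) and 0.739 for MNA (4 against 3, p = 0.457, adjusted 0.686) by two-sided exact permutation tests, where 3 against 3 cannot go below 0.1. Olaparib and MNA differed by 0.226 (p = 0.914, exact permutation test). With 1 count added to each gene, all 12 libraries gave a ratio, and the differences were 1.57 for olaparib against DMSO (p = 0.0571, adjusted 0.171), 0.73 for MNA against DMSO and 0.84 for olaparib against MNA (adjusted 0.371 each) by the same exact test.

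Ccr1, the inflammatory CC receptor, was lower with olaparib by a small amount that exceeded the spread between libraries. Its CPM was 267, 240, 262 and 254 in DMSO replicates 1 to 4, and 219, 189, 178 and 214 in olaparib. In MNA it was 245, 243, 171 and 190. Every olaparib library lay below every DMSO library, and 2 MNA libraries, replicates 1 and 2, lay in the DMSO range. The log2 fold change was -0.36 for olaparib (SE 0.115, adjusted p = 0.0387) and -0.27 for MNA (SE 0.115, adjusted p = 0.092). Leaving out MNA replicate 2 gave -0.34 (SE 0.108, adjusted p = 0.0166). The olaparib call was lost with upper-quartile scaling (log2 -0.33, adjusted p = 0.0555). It was lost as well when any 1 of the DMSO libraries or olaparib replicate 2, 3 or 4 was left out, at 0.0584 to 0.106. Olaparib and MNA differed by -0.09 in log2 (SE 0.115, adjusted p = 0.629), and by -0.02 without MNA replicate 2 (adjusted p = 0.921).

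Cxcr4, the receptor for Cxcl12, was lowest in 3 of the MNA libraries. In DMSO its CPM was 145, 156, 215 and 166, and in olaparib 122, 130, 142 and 137. MNA replicates 1 to 4 held 80.0, 154, 92.0 and 78.0. MNA replicates 1, 3 and 4 lay below all DMSO and olaparib libraries, MNA replicate 2 lay within the DMSO range, and the olaparib and DMSO groups did not overlap. The log2 fold change was -0.76 with MNA (SE 0.197, adjusted p = 0.0213) and -1.04 without MNA replicate 2 (SE 0.117, adjusted p = 5.89e-06). Leaving out DMSO replicate 3 or any of MNA replicates 1, 3 and 4 ended the MNA call, at 0.0599 to 0.0692, as did a fit of the 2 groups alone (0.0687). For olaparib it was -0.36 (SE 0.196, adjusted p = 0.182), which passed the threshold with the 2 groups alone (0.0125) or without MNA replicate 2 (0.0124). Olaparib lay above MNA by 0.39 (SE 0.196, adjusted p = 0.174), and by 0.67 (SE 0.116, adjusted p = 0.00041) without MNA replicate 2.

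Ccrl2, the chemerin-binding atypical receptor, was called lower with either agent. Its CPM in DMSO replicates 1 to 4 was 22.0, 37.9, 51.6 and 45.4. Olaparib held 15.7, 21.5, 25.7 and 16.7, and MNA 16.0, 32.3, 21.6 and 19.6. DMSO replicate 1 was low for its group, so the olaparib and DMSO ranges overlapped, while without MNA replicate 2 the MNA libraries lay below all of DMSO. The fold change was 1.98-fold lower with olaparib (log2 -0.98, SE 0.269, adjusted p = 0.0197) and 1.75-fold lower with MNA (log2 -0.81, SE 0.268, adjusted p = 0.0419). Leaving out MNA replicate 2 gave -1.05 for MNA (SE 0.24, adjusted p = 0.00226). Leaving out DMSO replicate 3 or 4, or olaparib replicate 1 or 4, ended the olaparib call, at 0.0537 to 0.0621. The MNA call was lost in 10 of 20 alternatives, at 0.0503 to 0.113, namely with the 2 groups alone and after leaving out any one of DMSO replicates 2 to 4, olaparib replicates 1, 2 and 4, and MNA replicates 1, 3 and 4. Between olaparib and MNA the log2 difference was -0.17 (SE 0.269, adjusted p = 0.69).

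**Figure D3:**
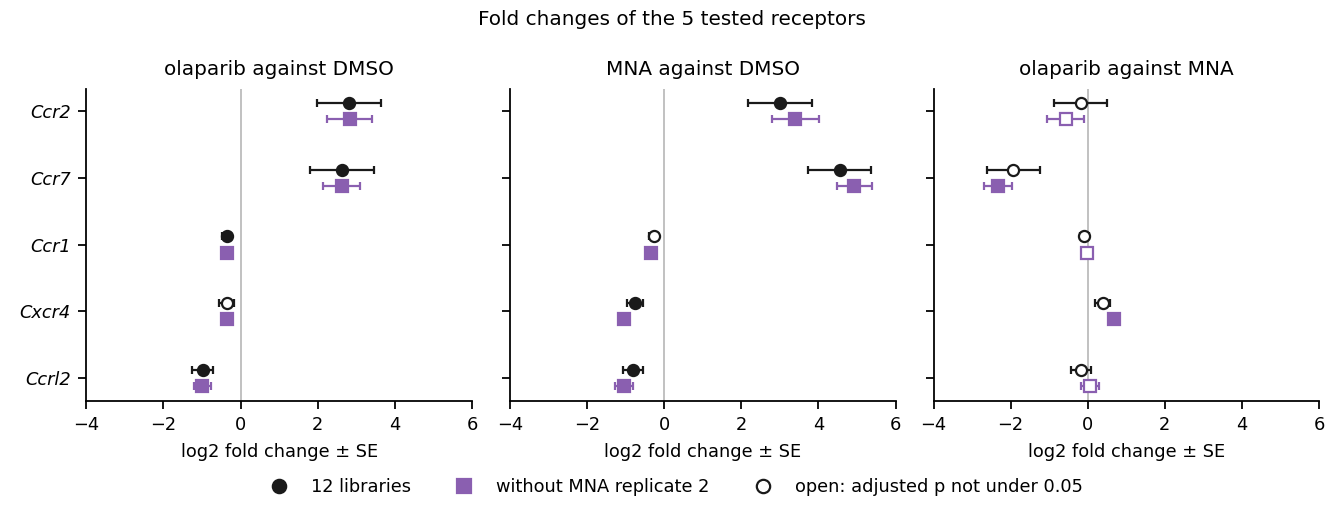
Log2 fold change ± SE of the 5 tested receptors in each comparison, for all 12 libraries (circles) and without MNA replicate 2 (squares), filled where the adjusted p was under 0.05. Ccr2 and Ccr7 lie right of 0 against DMSO, at 2.82 and 2.62 with olaparib, and Ccr1, Cxcr4 and Ccrl2 lie left of it.

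The receptors also varied with one another across the 12 libraries, which share the group structure and the position of MNA replicate 2. On log2 CPM, Ccr2 and Ccr7 had a Pearson r of 0.81, Ccr7 and Cxcr4 -0.924, Ccr2 and Ccrl2 -0.87, and Cxcr4 and Ccrl2 0.749. Among 9397 other genes with at least 100 counts on average, those most like Ccr7 were Arhgef17 (r = 0.983), an exchange factor for small GTPases, Map3k14 (r = 0.982), the kinase of the alternative NF-kB pathway, and Synpo (r = 0.973), an actin-binding protein. Arhgef17 stood at a mean of 2.73 CPM in DMSO, 9.04 in olaparib, 25.6 in MNA replicates 1, 3 and 4, and 3.47 in MNA replicate 2. Cxcr4 was most like Npc1 (r = 0.984), a cholesterol transporter of lysosomes, Dhrs3 (r = 0.98), a retinal reductase, and Stom (r = 0.979). Ccr2 was most like Stradb (r = 0.965) and the mitochondrial genes mt-Cytb and mt-Nd4 (r = 0.961 each). Ccrl2 was most like Sptlc2 (r = 0.965), a subunit of serine palmitoyltransferase, Wsb2 (r = 0.959) and Slc25a51 (r = 0.955), the mitochondrial carrier of NAD. Ccr1 was most like Wac (r = 0.932), Ap3m1 (r = 0.929) and Ppp2r5a (r = 0.921), which fell little, Wac from 101 CPM in DMSO to 80.0 in olaparib.

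Of 21 other listed chemokine receptors, 7 passed the count filter, and 1 was called higher and 1 lower with either agent against DMSO. Over all tested genes 14.3% were called higher and 12.8% lower with olaparib, and 16.3% and 12.3% with MNA. The median log2 fold changes of the 7 were 0.77 for olaparib and -0.42 for MNA. Leaving out MNA replicate 2 gave 2 higher and 1 lower with olaparib, and 1 higher and 2 lower with MNA. In that fit 22.5% of all genes were called higher and 21.2% lower with olaparib, and 27.2% and 26.9% with MNA. The 7 genes are too few to set the list apart from these shares. With olaparib Cmklr1, the signalling receptor for chemerin, rose from 3.84 ± 1.09 to 17.7 ± 3.95 CPM (log2 2.21, SE 0.279, adjusted p = 0.000372), while Ccrl2, which binds the same ligand, was lower. Xcr1, a receptor of cross-presenting dendritic cells, fell with olaparib from 1.79 to 0.784 CPM (log2 -1.19, SE 0.377, adjusted p = 0.0353). With MNA Cxcr2, a neutrophil receptor, rose from 0.149 to 0.576 CPM (log2 1.95, SE 0.617, adjusted p = 0.0367). Olaparib lay above MNA for Cmklr1 by a log2 of 2.63 (adjusted p = 0.000113).

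Of 15 listed ligands, 11 were tested. Olaparib raised 4 and lowered 1 (median log2 fold change 0.94), and MNA raised 4 and lowered 2 (median 0.10). Over all tested genes 14.3% were called higher and 12.8% lower with olaparib, and 16.3% and 12.3% with MNA. Without MNA replicate 2 the counts were 8 and 1 for olaparib and 5 and 4 for MNA, in a fit that also called more of all genes, 22.5% higher and 21.2% lower with olaparib and 27.2% and 26.9% with MNA. Ccl5, a ligand of Ccr1, rose from 0.0898 CPM in DMSO to 1.05 in olaparib (log2 3.49, adjusted p = 0.0083) and 2.16 in MNA (log2 4.52, adjusted p = 0.0142). Ccl3, another ligand of Ccr1, and the related Ccl4 rose with MNA by log2 2.64 and 2.66 (adjusted p = 0.0142 and 0.0165). The Ccr2 ligands moved apart, as Ccl12 rose with olaparib from 0.153 to 1.58 CPM (log2 3.35, adjusted p = 0.00193), Ccl7 fell with MNA from 10.2 to 2.17 CPM (log2 -2.21, adjusted p = 0.0406), and Ccl2 stood at 6.36, 13.2 and 6.75 CPM in DMSO, olaparib and MNA with neither difference past the threshold (adjusted p = 0.0596 and 0.865). Ccl8 had 14.6, 8.19 and 4.20 CPM in the 3 groups (adjusted p = 0.426 and 0.0974), but the MNA libraries held 0.535, 13.6, 1.12 and 1.49, and without MNA replicate 2 Ccl8 fell with MNA to 1.05 CPM (log2 -3.80, adjusted p = 1.42e-05). The same fit gave Ccl7 at 0.851 CPM (log2 -3.58, adjusted p = 0.00018) and called Ccl9 higher (log2 0.96, adjusted p = 0.00133) and Ccl12 lower with MNA (log2 -3.12, adjusted p = 0.0439), and the calls of Ccl3, Ccl4, Ccl5, Ccl6 and Cx3cl1 with MNA held in it at adjusted p of at most 5.54e-05. The Ccr1 ligands Ccl6 and Ccl9 were the most abundant. Ccl6 fell with MNA from 1028 to 351.5 CPM (log2 -1.55, adjusted p = 0.0142), and Ccl9 rose with olaparib from 422 to 810 CPM (log2 0.94, adjusted p = 0.0251). Cx3cl1, the ligand of the near-silent Cx3cr1, rose from 1.13 to 4.73 CPM with olaparib (log2 2.03, adjusted p = 0.0329) and to 6.28 with MNA (log2 2.44, adjusted p = 0.0213). Mif, which also binds Cxcr4, fell with olaparib by 0.22 in log2 (adjusted p = 0.043). The Ccr7 ligand genes Ccl19 and Ccl21a had at most 3 counts in every library.

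Downstream, 46 of 48 listed genes of receptor signalling were tested, and 17 were higher and 2 lower with olaparib (median log2 fold change 0.24) and 20 higher and 4 lower with MNA (median 0.27). Over all tested genes 14.3% were called higher and 12.8% lower with olaparib, and 16.3% and 12.3% with MNA. Once MNA replicate 2 was left out, 24 of the signalling genes were higher and 5 lower with olaparib, and 30 and 7 with MNA. That fit also called higher shares of all genes. Rac2, a small GTPase of blood cells, rose by log2 1.09 with olaparib and 1.26 with MNA (adjusted p = 0.00864 and 0.0142). With olaparib Plcb2, a phospholipase C activated by G proteins, rose by log2 1.35 (adjusted p = 0.00464), and Dock8, a Cdc42 exchange factor, by 1.08 (adjusted p = 0.0056). With MNA the kinase Fgr fell by 1.92 in log2 (adjusted p = 0.0194) and the G protein subunit Gng10 by 1.58 (adjusted p = 0.03), though 71.9% of the sequence words of Gng10 are shared with other genes.

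Some listed markers of other cells were called as well, and their patterns over the libraries differed. For this and the later marker lists, the shares of all genes called were 14.3% higher and 12.8% lower with olaparib, and 16.3% and 12.3% with MNA. Without MNA replicate 2 these shares were 22.5% and 21.2% with olaparib, and 27.2% and 26.9% with MNA. The lists are short, so their counts were not tested against these shares. Of 11 listed mature dendritic cell markers, 9 were tested, and 6 were higher and 0 lower with MNA, among them Fscn1 (0.134 to 2.96 CPM, log2 4.41, adjusted p = 0.0171), Cacnb3 (log2 3.59, adjusted p = 0.0156), Il4i1 (log2 1.91, adjusted p = 0.0144, 80.5% of words shared) and Cd83 (log2 1.33, adjusted p = 0.015). Like Ccr7, Fscn1 was high in MNA replicates 1, 3 and 4, at 7.81, 2.16 and 1.81 CPM, and low in replicate 2 at 0.0358. Flt3, a defining gene of dendritic cells, had 0 to 7 counts per library. The summed level of the 11 was mostly Itgax, an integrin that macrophages also make (1653 CPM in DMSO). The other 10 summed to 154 to 269 CPM in DMSO, 171 to 442 in olaparib, 187 to 267 in MNA replicates 1, 3 and 4 and 195 in replicate 2, so these sums overlapped. With olaparib 3 were higher, led by Ccl17 (log2 1.51, adjusted p = 0.0181). Leaving out MNA replicate 2 gave 6 higher and 1 lower with MNA, and 6 higher with olaparib. The part of such cells in the change of Ccr7 was not tested.

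Of 7 monocyte markers 4 were tested, and 2 were higher with each agent. In the fit without MNA replicate 2, 5 were tested, and 5 were higher with MNA and 3 with olaparib. F13a1 rose with olaparib from 0.238 to 10.0 CPM (log2 5.32, adjusted p = 2.51e-05) and S100a4 by log2 1.10 (adjusted p = 0.0051), while Vcan was among those that rose with MNA (log2 1.12, adjusted p = 0.0256). S100a4 made up most of the summed level (85.6 CPM in DMSO). The other 6 summed to 2.27 to 4.22 CPM in DMSO, 10.8 to 14.8 in olaparib, 10.0 to 12.3 in MNA replicates 1, 3 and 4 and 2.83 in replicate 2. Ly6c2, a defining gene of classical monocytes, had 0 to 8 counts per library. The part of monocytes in the change of Ccr2 was not tested.

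Some lymphocyte genes rose with MNA, and some T and NK cell genes with olaparib. Of 11 T and NK cell markers 6 were tested, and 3 were higher and 1 lower with MNA, with and without replicate 2. Gzma, a granzyme, had 23.0, 0.573, 41.2 and 40.1 CPM in MNA replicates 1 to 4 against 0.188 to 1.44 in DMSO (log2 5.07, adjusted p = 0.0142). With MNA Nkg7 rose by log2 4.99 (adjusted p = 0.0142) and Cd3e by 4.16 (adjusted p = 0.0192), while Klrb1c fell by 0.79. With olaparib 2 were higher, Cd3e (log2 3.585, adjusted p = 0.0276) and Klrb1c (log2 2.26, adjusted p = 0.000101). Lck was the 1 lower with olaparib (log2 -0.863, adjusted p = 0.0323). Without MNA replicate 2, 3 were higher and 1 lower with olaparib. The summed level of the 11 was 5.11 to 8.75 CPM in DMSO, 13.7 to 25.5 in olaparib and 34.2 to 49.4 in MNA replicates 1, 3 and 4, with 7.20 in replicate 2. Most of it in those 3 MNA libraries was Gzma (mean 34.8 CPM). Without Gzma the sum was 4.92 to 7.30 CPM in DMSO, 13.1 to 22.6 in olaparib, 8.16 to 11.1 in MNA replicates 1, 3 and 4 and 6.63 in replicate 2. Klrb1c, which was lower with MNA, stood at a mean of 13.3 CPM in olaparib. Of 7 B cell markers 4 were tested, and 3, Cd79b, Ms4a1 and Cd79a, were higher with MNA (log2 2.47, 1.60 and 1.43), and 4 were without replicate 2. Their sum was 0.281 to 1.84 CPM in DMSO and 4.32 to 7.45 in those 3 MNA libraries. Of 10 neutrophil markers 4 were tested, and Mmp8, a collagenase, was the 1 called, higher with olaparib (6.17 to 64.7 CPM, log2 3.41, adjusted p = 0.000156) and with MNA (log2 1.10, adjusted p = 0.0422). The other 9 summed to 1.34 to 10.6 CPM in DMSO, 2.93 to 3.89 in olaparib and 4.73 to 68.3 in MNA replicates 1, 3 and 4, and the median log2 fold change of the 4 with olaparib was -1.41. Without MNA replicate 2, 5 neutrophil markers were tested and 5 were higher with MNA (median 3.27). Of 10 markers of basophils, mast cells and eosinophils 2 were tested and both rose with olaparib, and their sum was mostly Siglecf (4.76 to 46.4 CPM, log2 3.28, adjusted p = 2.51e-05). Ccr7 is also made by lymphocytes, and their part in its change was not tested.

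**Figure D4:**
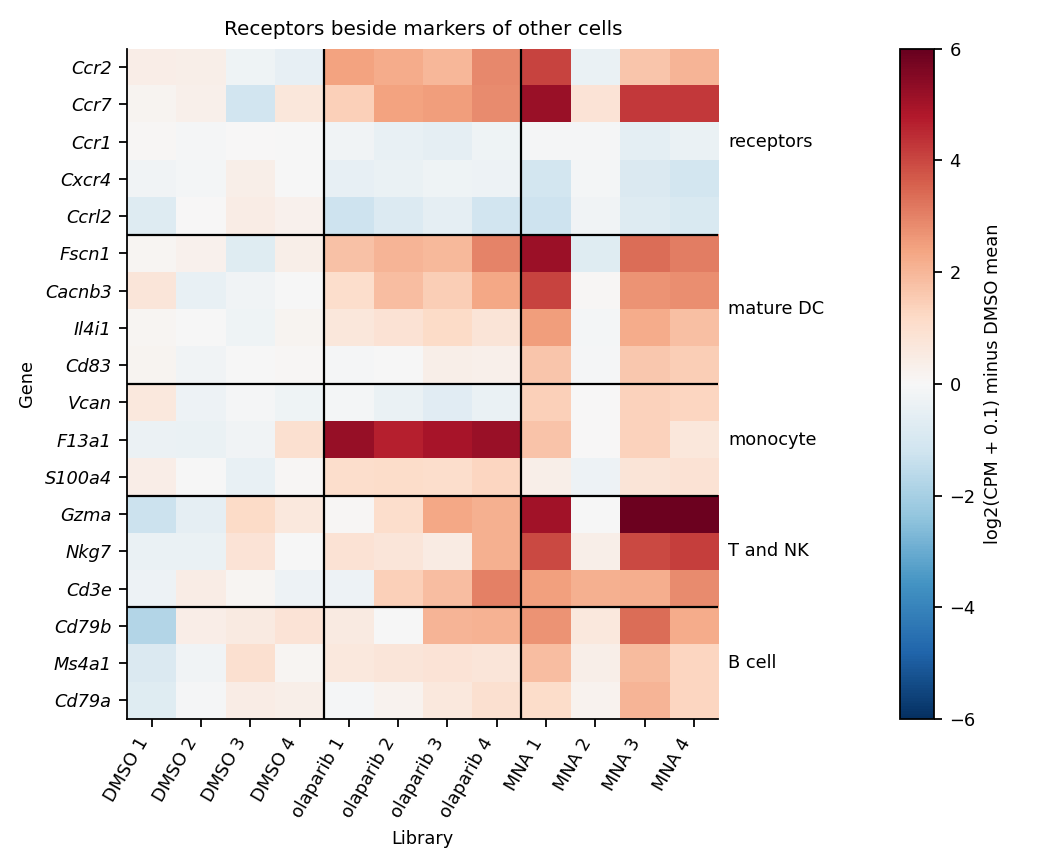
Log2(CPM + 0.1) of the 5 tested receptors and of selected markers of other cells, minus the mean of the DMSO libraries, in each of the 12 libraries, with red higher and blue lower. The markers drawn are a part of each list, picked among genes called higher with olaparib or MNA. Listed markers not drawn include Klrb1c, which was lower with MNA, and Lck, which was lower with olaparib. Ccr7 and Fscn1 are both highest in MNA replicate 1, at 5.16 and 5.14, and F13a1 is high in the olaparib libraries, at 4.68 to 5.23.

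Markers of the macrophages themselves did not fall together. Of 9 tested, 4 were higher and 1 lower with olaparib, led by Itgam (log2 1.74, adjusted p = 0.000353, with 68.3% of its sequence words shared with other genes), and 2 were higher and 1 lower with MNA, led by Csf1r (log2 1.45, adjusted p = 0.0153). Leaving out MNA replicate 2 gave 5 higher and 2 lower with olaparib, and 3 and 3 with MNA. In that fit 22.5% of all genes were called higher and 21.2% lower with olaparib, and 27.2% and 26.9% with MNA. Of 7 alternative activation markers, olaparib lowered Ccl24 (log2 -2.73, adjusted p = 0.000134), and MNA lowered Mrc1 and Retnla (log2 -1.49 and -1.23, adjusted p = 0.021 and 0.0211), the mannose receptor and a secreted resistin-like protein. All 7 were lower with MNA once replicate 2 was left out. Their summed level was 33200 to 53800 CPM in DMSO, 18900 to 30400 in olaparib, 1140 to 1610 in MNA replicates 1, 3 and 4 and 32100 in MNA replicate 2, mostly from Chil3. The other 6 summed to 2030 to 3080, 1810 to 3200, 589 to 782 and 1830 CPM in the same order. The part of this shift in the receptors' levels was not tested. The lower levels of Cxcr4 and Ccrl2 with MNA were thus seen beside a higher level of Csf1r.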

How the data were processed

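For 12 libraries of mouse BMDMs the authors deposited raw counts of reads per Ensembl gene. Per the labels and the study's methods, single-end reads of stranded mRNA libraries were aligned with STAR 2.5.2b to GRCm38.p5. The submitters' notes also name DESeq2. The values are whole counts that were not normalized, and whether genes had been left out of the tables is not given in the sources used here. Names, positions and exon lengths came from GENCODE M21, which named 34490 of the 35275 genes.

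Genes were filtered with filterByExpr (minimum count 10, total 15) and tested with edgeR 4.0.16 in R 4.3.3 (TMM scaling, quasi-likelihood F test, 1 fit of 12 libraries, Benjamini-Hochberg over 12849 genes, threshold 0.05). Standard errors came from the F values. CPM used TMM library sizes. Named genes are the 6 receptors, the 3 genes most correlated with each, and up to 4 called genes of each list with the widest fold change. Some genes that this rule names are not reported here. The receptors and lists were chosen with earlier results of these data known. Same-numbered DMSO and olaparib libraries deviated together (r = 0.172 to 0.408). For MNA libraries r was -0.009 to 0.277 with DMSO and 0.07 to 0.392 with olaparib. Whether the numbers pair the libraries is not given in the labels. The main fit held no term for them, and the replicate block was fitted as an alternative. Alternatives were DESeq2 1.42.0, other scalings and filters, fewer groups, the replicate block and leaving out each library. Errors are SDs between libraries or SEs of the fit, and the floor of 3 counts covers counting error only.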

Additional observations from a re-analysis of the deposited data

How the results depend on the processing

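Of 296 alternative fits of the 5 tested receptors, 236 kept the direction and the side of the threshold, 45 lost a call, 10 gained one and 5 turned the direction. The turned values all concern olaparib against MNA and none passed the threshold. With the replicate block Ccr2 was 0.324, with the replicate block and MNA replicate 2 left out Ccr1 was 0.021 and Ccrl2 0.029, without MNA replicate 1 Ccr2 was 1.112, and without MNA replicate 2 Ccrl2 was 0.055. With 1 library left out Ccr2 ranged from -0.576 to 1.112 and Ccrl2 from -0.32 to 0.055. The replicate block alone changed no call of a receptor. For olaparib against DMSO 3475 genes were called, 5720 with the 2 groups alone, 6116 with the replicate block and MNA replicate 2 left out, and 2152 to 5694 with 1 library left out. For MNA against DMSO 3673 were called, 7165 with that block and library choice, and 463 to 7042 with 1 library left out. With the 2 groups alone edgeR called 0 (4728 at an unadjusted p under 0.05), while DESeq2 on all libraries called 4449. For olaparib against MNA 2800 were called, 1808 with the 2 groups alone, 5742 with the block and without MNA replicate 2, and 1950 to 5503 with 1 library left out. The cause of these shifts was not tested. Called receptors were 2 higher and 2 lower with olaparib. A mean of at least 50 counts removed Ccr2 (1 higher), upper-quartile scaling left 1 lower, and leaving out 1 library gave 0 to 2 higher and 0 to 3 lower. With MNA, 2 higher and 2 lower became 1 higher under the filter of 50 counts, 0 and 0 with the 2 groups alone, and 1 to 2 higher and 0 to 3 lower with 1 library left out. Between olaparib and MNA, 0 and 0 became 1 lower with DESeq2, 1 higher and 1 lower with the block and without MNA replicate 2, and 0 to 1 in either direction with 1 library left out. The ratio of Ccr2 to Cx3cr1 differed from DMSO by 0.673 to 1.416 for olaparib and 0.29 to 1.286 for MNA with 1 library left out, and between the agents by -0.322 (without MNA replicate 2, adjusted p = 0.5) to 0.675, all by exact permutation tests. Paired by replicate number these differences were 0.586, 0.512 and 0.099, with 2 or 3 pairs. With 4 to 9 counts of Ccr2 and 1 to 12 of Ccr7 per DMSO library, depth limits their fold changes. The list genes were refitted only without MNA replicate 2, with the replicate block and without the count filter.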
